A study of Mus musculus with 11 samples.

Results

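The genes described are 10 of 21887 protein-coding genes, listed under the anterior neural plate and eye field. Rax, Otx2, Six6, Gbx2 and Irx3 are homeodomain genes, and Zic2 and Zic5 are zinc finger genes. Sox11 and Tcf7l1 are HMG-box genes, and Hes1 completes the list. The list is named for the fate to which the embryoid bodies were directed. Its name does not describe every member, since Gbx2 acts at the midbrain-hindbrain boundary, and a call does not by itself show that fate. The members were chosen by their H3K4me3 calls in wild type, with Rax added as the gene of the reporter. For each gene, H3K4me3 peaks within 1 kb of an end of its span were taken in every genotype, with any WDR5 or P53 peak within 5 kb of the span. Since H3K4me3 calls chose the members, those calls are given as a description with no test.

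Peaks came from CUT&RUN, in which an antibody on chromatin directs a nuclease to release the bound DNA, on mouse embryoid bodies at day 2 of SFEBq culture. The groups were Wdr5 knockout (KO, H3K4me3 only), Wdr5 and p53 double knockout (DKO, WDR5, P53 and H3K4me3) and wild type (WT, the same 3 targets). All groups shared an embryonic stem cell background with GFP knocked into Rx (the Rax gene), 5% KSR medium, removal of doxycycline at day 0 and 2% matrigel from day 1. How the knockouts were made, and from how many clones, is not given in the sources used here. H3K4me3 had 1 list per genotype, with 22.3 M fragments in KO, 43.2 M in DKO and 34.2 M in WT. WDR5 and P53 had 2 lists per genotype. In 3 of the 4 pairs, list 2 shared 75.3% to 80.3% of its summits with list 1 to the exact base, and such a pair is treated here as 1 library. In DKO P53 the share was 10.6%, from an alignment that was also merged from runs. No difference between genotypes has a replicate check. In bulk chromatin, fewer cells with a mark and less mark per cell cannot be told apart.

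The anterior neural plate gives rise to the forebrain and, from a patch within it, to the eyes. Otx2 and Tcf7l1 act early to set up anterior identity, and Rax and Six6 act in the eye field itself. H3K4me3, trimethylated lysine 4 of histone H3, marks the starts of active and poised genes. WDR5 is a core subunit of the MLL and SET1 complexes that deposit it, and these complexes are known to reach CpG-rich DNA through CXXC-domain proteins. Genes of early development often carry the mark together with the repressive H3K27me3, which was not profiled here.

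The start sites themselves ranged from CpG-poor to CpG-rich. RefSeq windows of 300 bases, from 250 before a start to 50 after it (GRCm38.p6), were found for 7 members, and 4 windows are shown because they carry the contrast between the genes. Tcf7l1 had the window with the most CpG and the only one overlapped by a peak. Otx2 had an upstream start with few CpG and an inner start that lies just before a peak called in DKO and WT. Sox11 stands for the genes whose start-proximal peak was called in WT but not in DKO. Capitals mark each CG dinucleotide, and all 4 are on the minus strand.
Tcf7l1, chr6:72788996-72789295: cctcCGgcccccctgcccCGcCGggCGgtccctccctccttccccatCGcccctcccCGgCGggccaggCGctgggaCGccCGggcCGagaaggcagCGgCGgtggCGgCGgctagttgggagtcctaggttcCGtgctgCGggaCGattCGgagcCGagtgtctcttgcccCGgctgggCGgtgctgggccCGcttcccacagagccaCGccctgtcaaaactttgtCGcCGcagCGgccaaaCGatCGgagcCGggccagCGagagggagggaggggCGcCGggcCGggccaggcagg
Otx2, upstream start, chr14:48667595-48667894: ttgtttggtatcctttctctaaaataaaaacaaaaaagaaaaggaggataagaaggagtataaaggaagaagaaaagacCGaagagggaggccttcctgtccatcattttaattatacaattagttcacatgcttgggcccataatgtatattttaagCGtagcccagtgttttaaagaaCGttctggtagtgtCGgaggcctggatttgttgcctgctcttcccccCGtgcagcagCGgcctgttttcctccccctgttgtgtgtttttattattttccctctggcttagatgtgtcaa
Otx2, inner start, chr14:48662685-48662984: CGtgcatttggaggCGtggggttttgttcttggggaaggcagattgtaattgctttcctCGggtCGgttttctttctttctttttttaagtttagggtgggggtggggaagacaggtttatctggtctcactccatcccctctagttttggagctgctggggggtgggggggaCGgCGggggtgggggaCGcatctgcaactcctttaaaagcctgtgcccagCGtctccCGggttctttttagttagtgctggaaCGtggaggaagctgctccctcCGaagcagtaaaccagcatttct
Sox11, chr12:27342669-27342968: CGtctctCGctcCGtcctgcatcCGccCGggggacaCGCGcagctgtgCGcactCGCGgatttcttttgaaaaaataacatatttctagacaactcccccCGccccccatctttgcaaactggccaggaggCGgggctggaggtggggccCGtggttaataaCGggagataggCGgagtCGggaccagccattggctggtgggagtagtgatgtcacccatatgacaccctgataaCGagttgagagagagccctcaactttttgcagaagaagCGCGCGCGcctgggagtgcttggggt

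In the first-listed windows, Tcf7l1 held 34 CG dinucleotides, Gbx2 27, Sox11 21, Six6 20, Zic5 15, Irx3 14 and Otx2 6. The median was 22 over the 6333 protein-coding genes marked in WT that have a window and 6 over the 11159 that were not marked. Otx2 thus stood at the level of unmarked genes at its upstream start, while its 3 other windows held 8, 16 and 11. Both strands were searched for motifs. A GC box (GGGCGG) lay in 5 of the 7 first-listed member windows, against 69.8% of those of genes marked in WT and 35.7% of all windows. A CCAAT box (CCAAT) lay in 2 of the 7, against 40.2% and 37.4%. The E-box (CACGTG) lay in the Gbx2 window, the TATA box (TATAAA) in the upstream Otx2 window and an OTX-type homeodomain site (TAATCC) in 1 inner Otx2 window, against 7.15%, 13.6% and 7.06% of all windows and 10.6%, 5.76% and 4.99% of the first windows of marked genes. The p53 half-site, searched by its consensus, was in none of the 10 member windows, against 8.36% of all windows and 6.03% of the first windows of marked genes. These matches describe letters in a window and are not binding sites.

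H3K4me3 was called at an end of Zic2 in KO, of Otx2 and Tcf7l1 in DKO, and of all members but Rax in WT. These are 1, 2 and 9 of the 10 genes, against 3.2% of all protein-coding genes in KO, 22.8% in DKO and 35.5% in WT. Of the genes marked in WT, 8.98% were also called in KO and 59.8% in DKO. Since the rule chose genes marked in WT, the counts are set beside these shares and nothing is read from the count in WT.

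**Figure D1:**
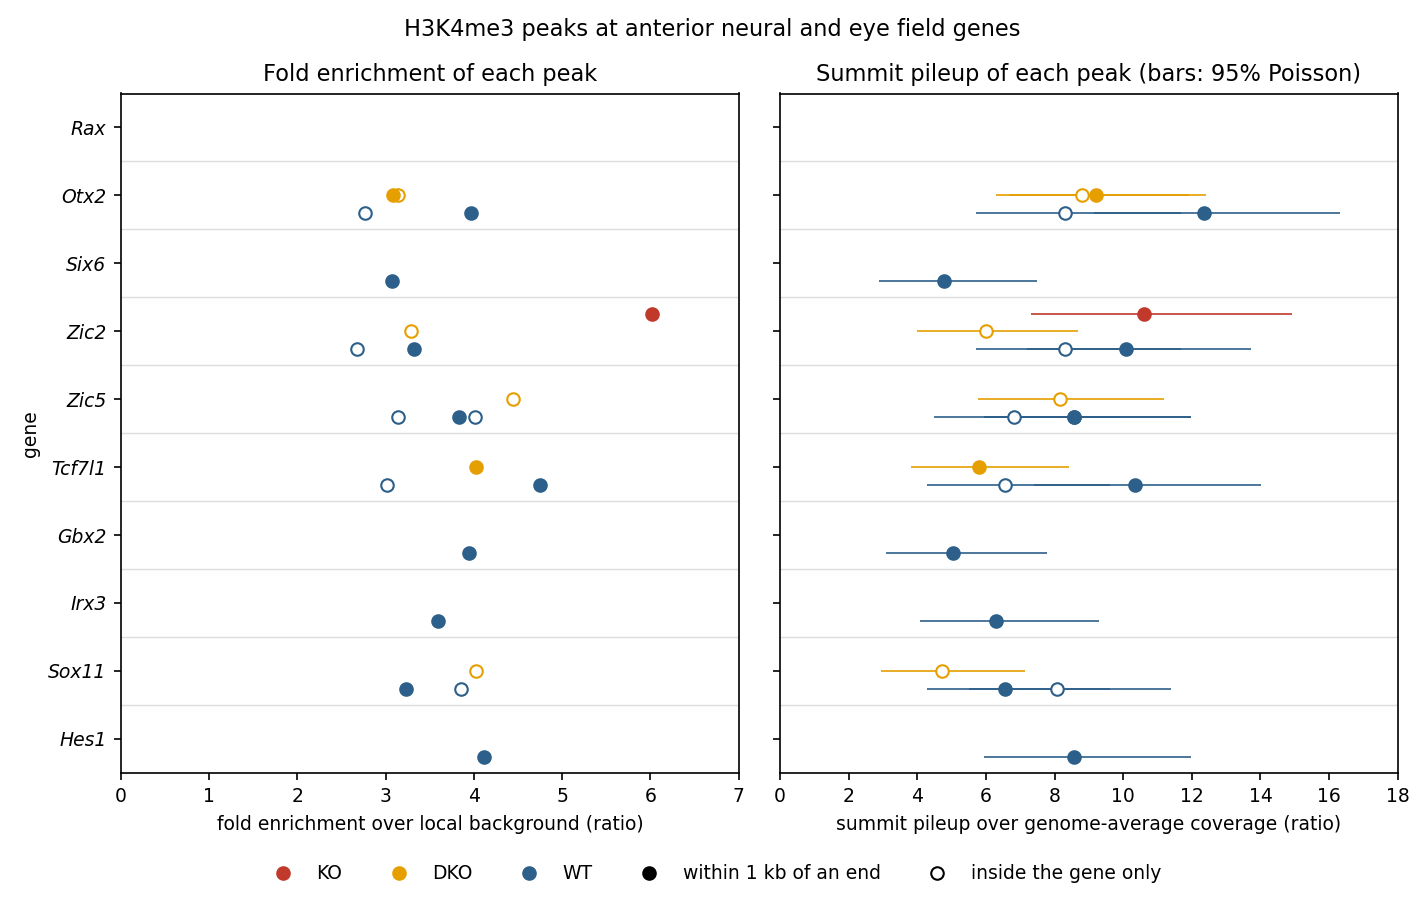
Every H3K4me3 peak within 1 kb of the span of the 10 genes, in KO, DKO and WT, as fold enrichment over the local background (left, ratio) and as summit pileup over the genome-average coverage of its library (right, ratio, with exact 95% Poisson bars). Filled points lie within 1 kb of an end and open points only inside the gene. The Zic2 peak in KO stands highest on the left at 6.01 but beside the WT peak on the right, at 10.6 against 10.1.

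Rax, the homeodomain factor without which eyes do not form, carried no peak in any list. Its span is on chromosome 18 from 65934639 to 65939089, and the nearest H3K4me3 peak lay 1702.5 kb away in KO, 62.5 kb in DKO and 62.5 kb in WT. Since GFP was knocked into this gene and the lists give no values where no peak was called, its level of H3K4me3 is not known beyond the absence of a call.

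Otx2, a homeodomain factor of the forebrain and midbrain (chromosome 14, 48656781 to 48667644), had no peak in KO, 2 in DKO and 2 in WT. The peak near its upstream start had a fold enrichment of 3.08 in DKO and 3.97 in WT. It ran over 1205 bases in DKO, from 48666150, and over 1068 bases in WT, from 48666118. So the 2 genotypes marked nearly the same stretch, and its summit lay 1351 bases inside the gene's end in DKO and 1309 in WT. The second peak, inside the gene, had a fold enrichment of 3.14 in DKO and 2.77 in WT, with summits 592 and 517 bases downstream of the inner start whose window is shown above. No peak overlapped any of the 4 start-site windows of Otx2.

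Six6, an eye and pituitary homeodomain factor on the plus strand of chromosome 12 (72939882 to 72944899), was called in WT alone. Its peak of 239 bases lay at the far end of the gene, 413 bases beyond it, and the summit was 5478 bases downstream of the start. With a fold enrichment of 3.07 and a pileup of 19, this peak had the lowest -log10 q among the members' end peaks, 3.01 against a cutoff of 2. The start of Six6 itself carried no call in any genotype.

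Zic2 and Zic5, zinc finger factors of the neural plate, are neighbours on chromosome 14 (Zic5 from 122459160 to 122465658, Zic2 from 122475384 to 122480328). The Zic2 end peak had a fold enrichment of 6.01 in KO and 3.32 in WT. It ran from 122475915 to 122476510 in KO, inside the WT peak from 122475782 to 122476534. In DKO no peak was called there, but a peak of 302 bases was called farther in, 2050 bases from the end, with 3.28, where the WT peak had 2.68.

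Zic5 had no peak in KO, 1 in DKO and 3 in WT. The DKO peak ran over 1129 bases and had a fold enrichment of 4.44. It covered parts of the inner WT peaks, which had 4.01 and 3.14. The WT peak nearest the start, 617 bases downstream of it with 3.83, had no counterpart in KO or DKO.

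Tcf7l1, a TCF factor that represses Wnt target genes (chromosome 6, 72626371 to 72789045), had no peak in KO, 1 in DKO and 2 in WT. At the start, the fold enrichment was 4.03 in DKO and 4.75 in WT, and the peak was 333 bases long in DKO and 909 in WT. By fold enrichment this was the highest end peak of the members in WT, whereas by pileup it had 41 fragments and the Otx2 peak 49. The WT peak alone reached the start-site window. A smaller WT peak, 1189 bases from the end with 3.01, was not matched in DKO.

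Sox11, an HMG-box factor of neural progenitors on chromosome 12 (27334268 to 27342718), had no peak in KO, 1 in DKO and 2 in WT. The DKO peak lay inside the gene, with its summit 1972 bases downstream of the start and a fold enrichment of 4.03. The WT peak at the same place had 3.85. The WT peak near the start, with 3.23 and a summit 310 bases downstream, was absent from the DKO list.

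Gbx2, Irx3 and Hes1 had a single peak each, in WT, and none in KO or DKO. Gbx2, a homeodomain factor that meets Otx2 at the midbrain-hindbrain boundary, had a fold enrichment of 3.94 and a pileup of 20 on chromosome 1 from 89930608 to 89930875. Irx3, an Iroquois homeodomain factor, had 3.60 and 25 on chromosome 8 from 91801108 to 91801490. Hes1, a repressor that acts downstream of Notch, had 4.11 and 34 on chromosome 16 from 30065440 to 30065987. The Hes1 peak was thus the highest of those members for which no peak was called in KO or DKO.

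The DKO peaks of Zic2, Zic5 and Sox11 lay farther than 1 kb from an end, so the window at gene ends missed them. With peaks anywhere within 1 kb of the span, 1 member was called in KO, 5 in DKO and 9 in WT, against 3.85%, 26.7% and 40.2% of all genes. Among genes marked at an end in WT, 9.52% had such a peak in KO and 63.2% in DKO. A DKO peak inside the gene with none at an end, as at Zic2, Zic5 and Sox11, was seen at 3.4% of the genes marked in WT. The edges of these 3 peaks lay 2050, 1810 and 1648 bases from an end, outside the 1 kb window, while the KO peak of Zic2, at 531 bases, and the DKO peak of Otx2, at 290 bases, lay inside it. In these 3 genes the WT peak nearest an end was the one without a DKO counterpart.

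**Figure D2:**
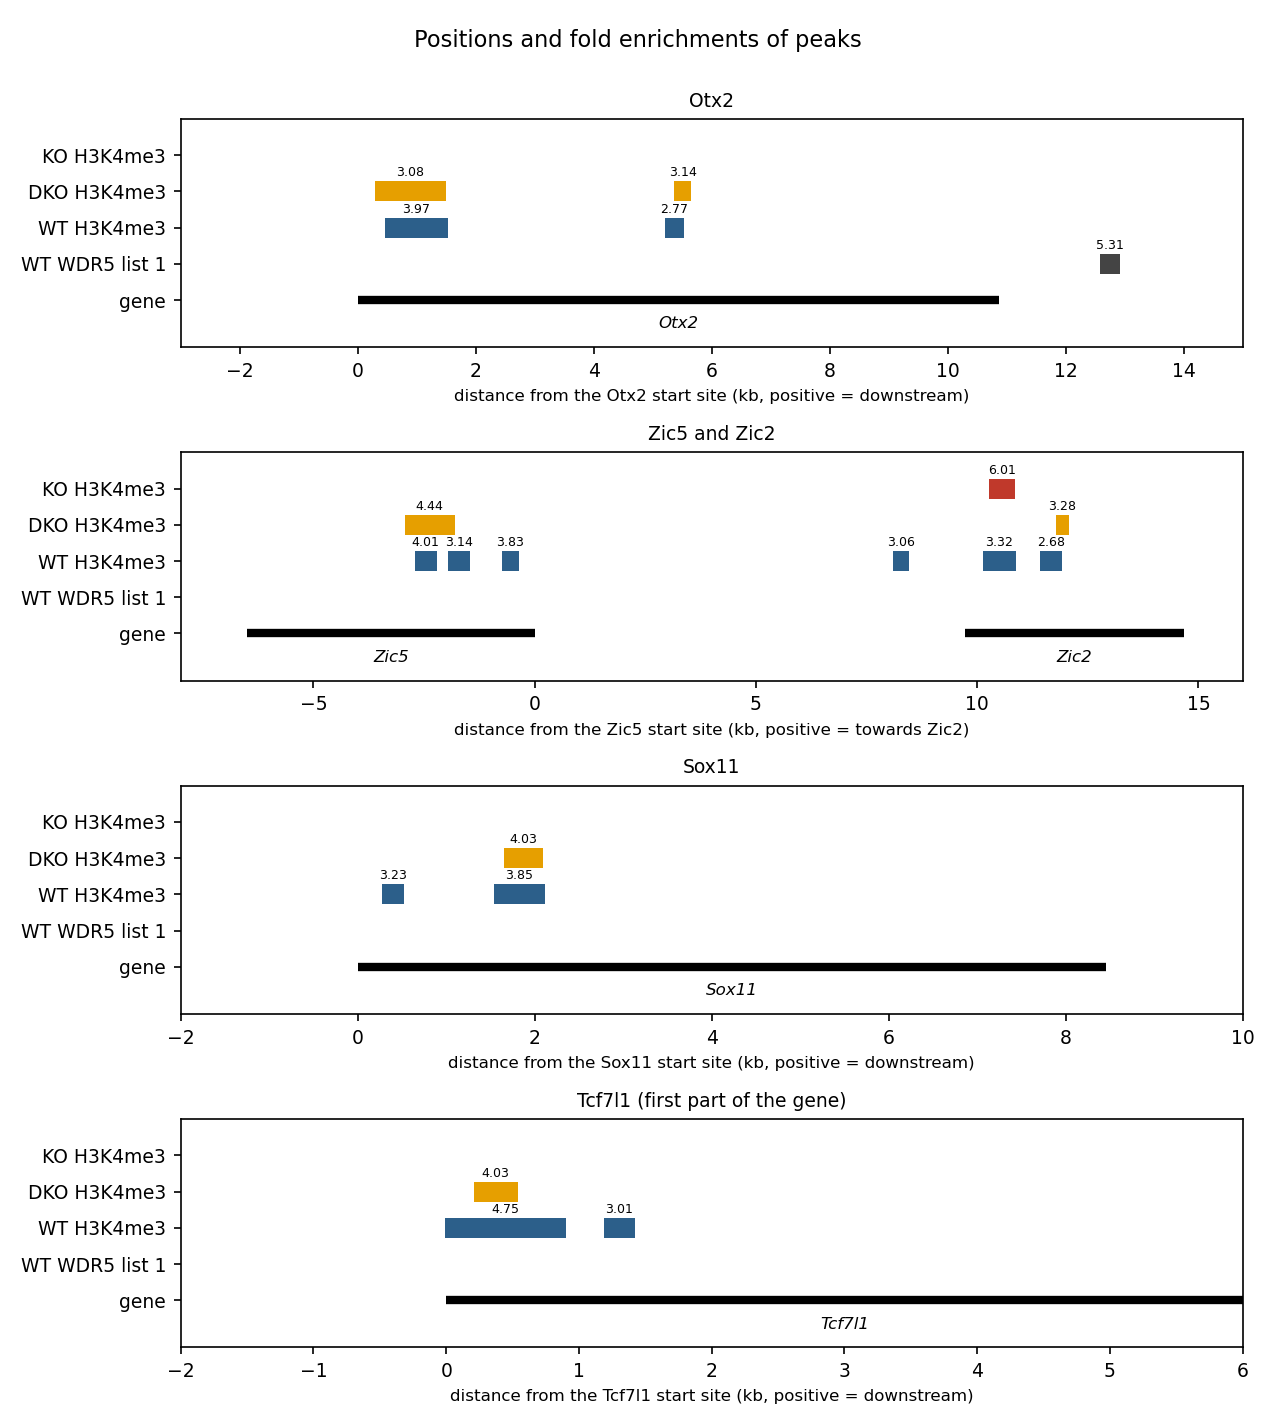
Peaks along Otx2, Zic5 and Zic2, Sox11 and the first part of Tcf7l1, drawn to scale as distance in kb from a start site. Rows from top to bottom are H3K4me3 in KO, DKO and WT, WDR5 in WT (list 1) and the gene, and each bar carries its fold enrichment. At Zic5, Zic2 and Sox11 the DKO bars sit over the inner WT bars and not over the WT bar nearest an end.

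Peaks were also compared by overlap between genotypes. The members were chosen for WT peaks, which favours an overlap of knockout peaks with WT peaks there, so the counts are a description. The KO peak and all 6 DKO peaks at the members overlapped a WT peak, as did 87.6% of all KO peaks and 78.1% of all DKO peaks. In reverse, of 15 WT peaks at the members, 1 was overlapped by a KO peak and 7 by a DKO peak, against 8.08% and 49.2% of all WT peaks. The KO peak and the DKO peaks at the members did not overlap each other. Over the whole lists, 75.6% of KO peaks overlapped a DKO peak and 10.9% of DKO peaks overlapped a KO peak. With 1 KO peak at the members, this is no result about the group. Called bases over the 10 spans came to 596 in KO, 3706 in DKO and 7444 in WT.

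Fold enrichment is set against the local background of the same library, so heights were also read as the summit pileup over the genome-average coverage. On this scale the Zic2 end peak stood at 10.6 in KO (33 fragments) and 10.1 in WT (40 fragments), a ratio of 1.05 (95% interval 0.644 to 1.71). The local background at Zic2 was 1.5 times the genome average in KO and 2.86 times in WT. The higher fold enrichment of Zic2 in KO thus stood beside a lower local background and a like summit, with an interval that leaves room for a change in either direction.

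In DKO, the same ratio to WT was 0.560 at the start of Tcf7l1 (27 fragments in DKO and 41 in WT, 0.331 to 0.933). It was 0.585 at the inner Sox11 peak (0.324 to 1.04), 0.722 at the inner Zic2 peak (0.420 to 1.23) and 0.746 at the upstream Otx2 peak (0.484 to 1.15). At Zic5 it was 0.950 (0.583 to 1.56) and at the inner Otx2 peak 1.06 (0.652 to 1.72). Tcf7l1 was the 1 of these 6 peaks whose interval stayed below 1. The intervals cover counting error only, with 1 library per genotype, and WT calls chose the members. A loss at Tcf7l1 in DKO was therefore not tested. By fold enrichment Tcf7l1 kept its place in the list, exceeding 48.6% of the genes called at an end in DKO and 51.1% in WT. The median over all such genes was itself lower in DKO, at 4.03 against 4.72 in WT. Sox11 is a case where the scales part, with a higher fold enrichment in DKO than in WT and a lower pileup, its local background being 1.01 times the genome average in DKO and 1.91 times in WT.

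In WT the median local background of the members was above that of all marked genes, but the members differed. With no control, it was drawn from the same H3K4me3 library over a range of 10 kb, where other peaks can lie. The end peaks had a median fold enrichment of 3.83, against 4.72 over the 7762 genes marked in WT. Their median pileup was 8.57 times the genome average, against 7.56, and their median local background 1.89 times, against 1.40. Otx2, at 2.92 times the average, exceeded 99.6% of the marked genes in local background, and its pileup of 49 fragments exceeded 90.9%, while its fold enrichment exceeded 20.4%. Zic2 was alike, at 99.5%, 76.2% and 3.52%. Gbx2, with a local background of 1.09 times the average, exceeded 12.3% and 7.15% of them in background and pileup, so its low fold enrichment came with few fragments. Six6 exceeded 49.1% and 4.17%. In pileup, Irx3 exceeded 26.6% and Sox11 30.6%. Fold enrichment and local background are not independent, since local background, the divisor in fold enrichment, was recovered from pileup and fold enrichment.

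Across the genome, the share of genes called in KO and DKO increased with WT fold enrichment, on which the members were low, while their median pileup over the genome average was above that of all marked genes. Of the 9 marked members, 7 were in the lowest quartile of WT fold enrichment, Hes1 in the second and Tcf7l1 in the third. In the lowest quartile 1.65% of genes were called in KO and 35.3% in DKO, and in the highest 18.5% and 82.2%. Of the 7 members of the lowest quartile, Zic2 was called in KO and Otx2 in DKO. The KO call of Zic2 was lost with a window of 500 bases.

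**Figure D3:**
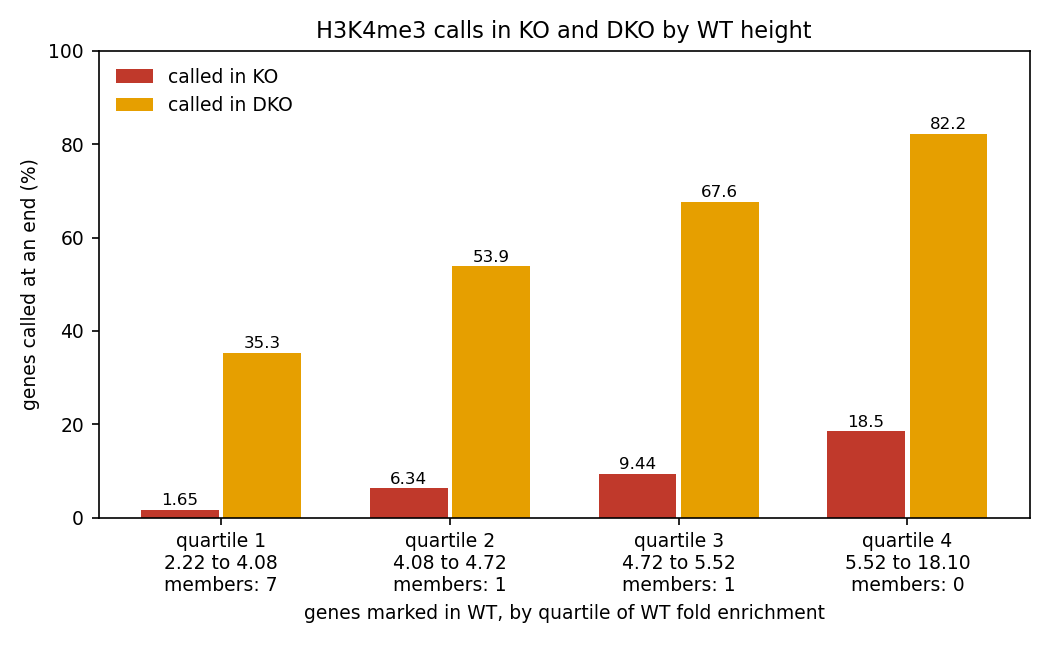
Percent of genes marked in WT that were called at an end in KO and in DKO, by quartile of their highest WT fold enrichment (range below each pair of bars, with the number of members). The share called increases with WT fold enrichment, from 1.65% to 18.5% in KO and from 35.3% to 82.2% in DKO, and 7 of the 9 marked members are in the lowest quartile.

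Depth differed between the libraries, so each WT end peak was carried to the genome-average coverage of the other libraries, with pileup and local background scaled alike, and its expected -log10 p was set against the lowest in that list. In KO, whose coverage was 0.783 times that of WT, the expected value was 13.5 at Tcf7l1, 12.8 at Otx2 and 9.71 at Hes1, against a lowest value of 5.93. None of these 3 genes was called in KO. Zic5, at 8.96, was not called, and Zic2, at 8.78, was. Sox11 at 6.11, Gbx2 at 6.21 and Irx3 at 6.63 were above that value by less than 1 unit, Six6 at 4.32 was below it, and none of these 4 was called. The part of depth in the calls was not tested.

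Over the genome, 89.4% of the genes marked in WT had an expected value at or above the lowest in KO, and 10% of those were called. The DKO library was deeper than WT, so nearly every WT call stays above the lowest value there, 5.01. This held for 99.97% of the genes marked in WT, of which 59.8% were called, and for all 9 marked members, from 6.41 at Six6 to 19.4 at Tcf7l1. The scaling keeps the WT ratio of peak to background and adds no counting error, so it cannot show which peaks would be called. At Hes1 the expected value was 13.8, at Irx3 9.55 and at Gbx2 8.94, and none of these had a peak there. The median local background of all peaks also moved with genotype, at 1.24 times the genome average in KO, 1.28 in DKO and 1.39 in WT, and its part in the result was not tested.

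**Figure D4:**
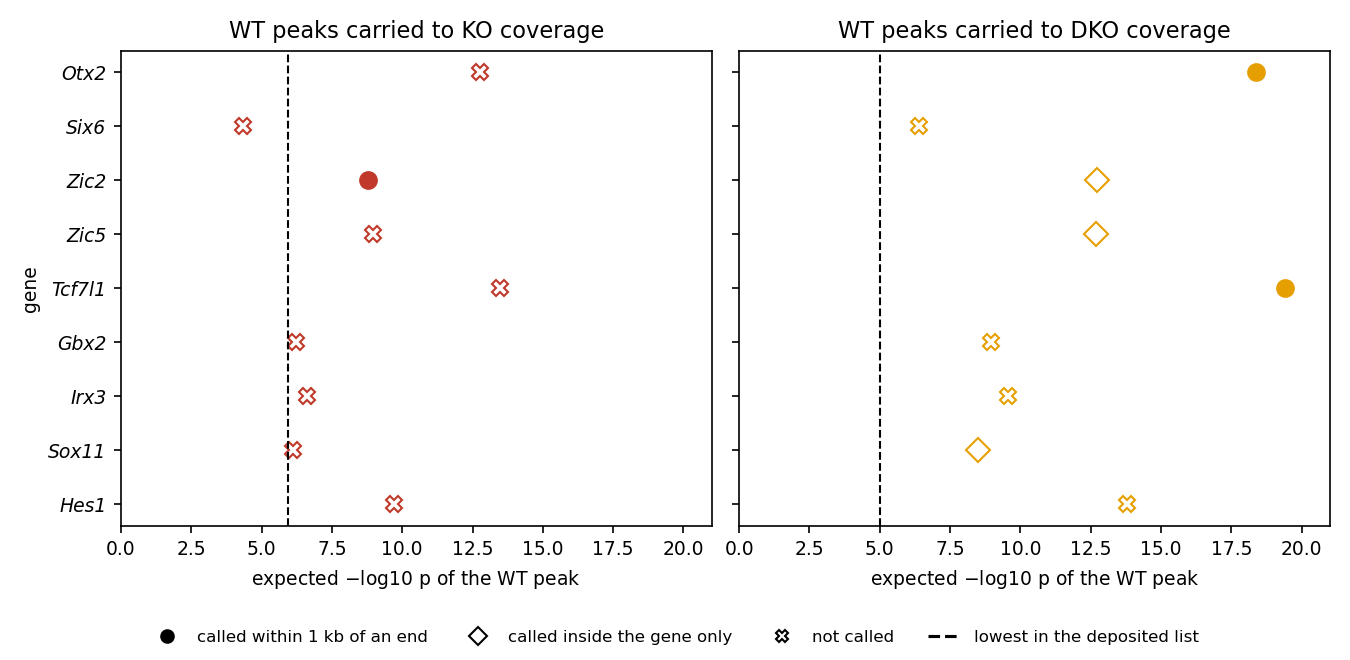
Expected -log10 p of the highest WT end peak of the 9 marked members when carried to the coverage of the KO library (left) and the DKO library (right). Dashed lines show the lowest -log10 p in each deposited list, 5.93 in KO and 5.01 in DKO. Filled circles were called at an end, diamonds inside the gene only, and crosses were not called, and Six6 in KO is the 1 point left of its line.

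The position of the WT peaks relative to start sites varied among the members. In the 7 members with listed starts, the summit of the highest end peak lay downstream of the nearest start in 7, as in 75.2% of 6333 marked genes. It was within 1 kb of that start in 5 of the 7, the exceptions being Six6 and Otx2, against 90.0% of the marked genes. The median distance was 505 bases, against 385.

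WDR5 was called near 1 member, Otx2, in WT, and near none in DKO. The peak lay 1712 bases beyond the far end of the gene on chromosome 14, from 48654728 to 48655069, away from both H3K4me3 peaks. No list of DKO had a WDR5 peak there, while the fold enrichment was 5.31 and 5.33 in the 2 WT lists, with pileups of 22 and 20 and the same summit base in both. Across all genes, a WDR5 peak lay within 5 kb of the span at 1.05% in DKO and 3.79% in WT, and 3.06% had one in WT with none in DKO. At these rates 1 of 10 members is no result about the group.

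P53 was called within 5 kb of no member in DKO or in WT, against 0.329% and 0.914% of all genes. The nearest P53 peak within 50 kb of a member was 12392 bases from Gbx2, in list 1 of WT alone, with a fold enrichment of 4.08. With shares this low, an absence at 10 genes is not a finding.

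Few other neural plate and eye field genes were marked. Of 40 such genes on a fixed list, 1 was called at an end in KO, 1 in DKO and 4 in WT. The shares of all protein-coding genes were 3.2%, 22.8% and 35.5%. The members had been taken out of this field by their WT calls, which lowers the counts among the genes left. The counts are thus a description, and nothing is read from their place below the shares. Sox2, a factor of both pluripotent and neural cells, had a fold enrichment of 3.54 in KO, 2.91 in DKO and 3.69 in WT. The others, called in WT alone, were Otx1, a relative of Otx2, with 4.19, Fgf15, a fibroblast growth factor of the early brain, with 3.88, and Sox4, a relative of Sox11, with 3.75. Pax6, Six3 and Lhx2, regulators of eye and forebrain, had no end peak in any genotype. With the whole span counted, peaks were also called at Mitf (3.33) and En2 (3.15) in DKO alone, and Pax2 (4.01) and Tcf7l2 (3.83) in WT alone.

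Markers of other cell types were counted by the same rule. The shares of all protein-coding genes called at an end were 3.2% in KO, 22.8% in DKO and 35.5% in WT. Of 10 pluripotency genes, 3 were called at an end in KO, 7 in DKO and 7 in WT. The DKO and WT sets differed, with Nanog called at an end in DKO alone and Klf4 in WT alone. Mesoderm and endoderm genes gave 0, 0 and 1 of 10 (Eomes), fibroblast feeder genes 0, 0 and 1 of 10 (Thy1), and posterior neural and neural crest genes 0 of 10 in each. The pluripotency genes called in KO were Pou5f1, Sox2 and Utf1, and Sox2 is on both lists. The part of other cell types in the members' calls was not tested.

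For each member called in KO or DKO, the genes most like it in calls and height were found. Those nearest to Otx2 in log2 fold enrichment over the 2 lists with a call were Zmym6, Tmem79 and Grsf1, and those nearest to Tcf7l1 were Txlng, Ciao2b and Clasp1, out of 3981 genes called in DKO and WT but not in KO. Zic2 shared its pattern at gene ends, called in KO and WT but not in DKO, with few genes, 40 in all including itself. The nearest of these was Srsf5, a splicing factor gene, with 5.84 in KO and 4.27 in WT.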

How the data were processed

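The members and gene lists were chosen with earlier results of these data known. Per the file headers, the authors ran MACS 2.1.2 or 2.1.0.20150731 on read pairs with no control, a q limit of 0.01, a 10 kb range for local background and up to 2 duplicates per position. Bowtie2, SAMtools 1.5, bedtools, HOMER 4.10 and mm10 are named in the submitters' processing notes. The deposited pileup is a coverage signal, the fragments over a summit, unscaled. The deposited -log10 p, -log10 q and fold enrichment (a ratio to local background) are the authors' values for each peak.

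Gene spans, start sites and sequences came from RefSeq tables of GRCm38.p6, the assembly of mm10. All 10 members matched by symbol, and 7 had start-site windows (not Rax, Zic2 and Hes1). The text names all members, neural and eye field genes of the fixed list with a peak at an end, genes sharing a peak and those most like a member. Other genes were named after their values were seen. Peaks outside chromosomes 1 to 19, X and Y were dropped. Local background was recovered as (pileup + 1) / fold enrichment - 1. The Poisson p recomputed from it came within 0.05 of the deposited -log10 p for 99.5% of KO, 99.9% of DKO and 99.9% of WT H3K4me3 peaks. Genome-average coverage is fragments times fragment length over effective genome size. Scaling by it was chosen after the data were seen. Intervals are exact (95%, Poisson for pileups, binomial for ratios, scipy 1.17.1) and cover counting error only. With 1 H3K4me3 list per genotype no test was made. The overlap search was tested on simulated data. Alternatives were other windows, stricter or equal-length lists, summits in place of peaks, and each WDR5 or P53 list left out.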

Additional observations from a re-analysis of the deposited data

How the results depend on the processing

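Of 42 alternatives, 31 left the number of members called unchanged or within 1.5 times. Many of these were counts of 0 that stayed 0, in 6 alternatives each for WDR5 and P53 in DKO and 5 for P53 in WT. For H3K4me3 in DKO, 5 alternatives moved the count and 1 did not. In KO the call at Zic2 was lost with a 500 base window (0 members). In DKO the count was 5 with a 5000 base window or the whole span, 1 in the top 50% of the list, 1 with summits in place of peaks and 0 with lists of equal length. In WT it was 1 in the top 50% (Tcf7l1) and 0 with lists shortened to 918 peaks, the length of the KO list, which was itself left whole. For WDR5 in WT the count was 0 within 1000 bases and 2 within 50000 bases (Otx2 and Zic5). For P53 in WT it was 1 within 50000 bases (Gbx2). Leaving out either list of WDR5 or P53 changed no count at 5000 bases. The log2 ratio of the Zic2 peak, KO over WT, was 0.86 by fold enrichment, 0.34 by pileup per M fragments and 0.07 by pileup over the genome average. No paired analysis was possible because no test was made and each H3K4me3 group had 1 list. At the depth of the KO list, a peak at Six6 scaled from WT would lie below the lowest value called.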

Other observations

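Some WT peaks near Otx2 and Zic2 lay in noncoding genes. A pair of WT peaks lay upstream of Otx2, with summits 6259 and 6737 bases before its upstream start, inside the long noncoding RNA gene Otx2os1, with fold enrichments of 3.75 and 3.04. Between Zic5 and Zic2, a WT peak with 3.06 lay in the noncoding gene 2610035F20Rik, 1274 bases from the span of Zic2. No peak of KO or DKO overlapped these 3. Of all WT peaks, 8.08% were overlapped by a KO peak and 49.2% by a DKO peak, so this is no result about these genes. Next to Tcf7l1, peaks at Tgoln1 and in Elmod3 were called in DKO and WT and not in KO. The peak at the end of Tgoln1, 8731 bases from Tcf7l1 in DKO and 8883 bases in WT, had a fold enrichment of 3.31 in DKO and 6.36 in WT. The peak in Elmod3 had 4.29 in DKO and 4.45 in WT.

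Nanog, a core pluripotency factor gene, was called in DKO with 4.28 and in neither KO nor WT. WDR5 peaks in WT lay within 5 kb of Utf1, a chromatin factor of pluripotent cells, with 5.18 and 4.59 in the 2 lists, and, in list 1 alone, of Esrrb (5.57), Tdgf1 (4.0) and Hes5, a Notch target related to Hes1 (4.02). None of these had a WDR5 peak in DKO.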
